A study of Homo sapiens with 18 samples.

Results

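The genes described here encode the amyloid precursor protein family and part of the machinery that cuts it: APP, APLP1 and APLP2, the enzymes and subunits ADAM10, BACE1, PSEN2, NCSTN and APH1A, and CLU, which encodes clusterin. They were represented by every probe set that the platform annotation pairs with exactly 1 of these 9 genes, which gave 23 probe sets for 9 of 11963 genes, of the 22283 on the array and the 19065 with a single gene symbol. APLP2 had 7 of them, APP, ADAM10, PSEN2 and CLU had 3 each, and APLP1, BACE1, NCSTN and APH1A had 1 each. The samples were cultures of SH-SY5Y, an established neuron-like line from a human neuroblastoma, exposed to 5 ppm of sarin (GB) for 3, 24 or 48 h or left untreated for the same times. Sarin is a nerve agent of the organophosphate class and inhibits acetylcholinesterase, which clears acetylcholine from the synapse. Each of the 6 groups held 3 arrays of total RNA, 18 in all. The labels give 6 flasks for each group but do not say which flasks went onto which array, so p-values measure the spread between arrays, which may be technical, and the line is a single cell line.

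APP is a membrane protein that is cut in the cell by proteases called secretases. ADAM10, the main alpha-secretase of neurons, cuts within the amyloid-beta stretch and releases a soluble ectodomain, whereas BACE1, the beta-secretase, makes the first cut on the route to amyloid-beta. The gamma-secretase complex, built from a presenilin such as PSEN2, nicastrin (NCSTN), an APH1 subunit such as APH1A and PSENEN, makes the final cut within the membrane. APLP1 and APLP2 are cut by the same kinds of enzyme but lack the amyloid-beta sequence, and clusterin is a secreted chaperone that binds amyloid-beta outside the cell.

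The values were MAS5 signals, which are intensities on a linear scale, and each probe set has its own scale, so levels were compared between groups within a probe set and never between probe sets or genes. A change is a difference of group means of log2(signal + 16) in a single limma fit to all 18 arrays. It is called where the adjusted p was under 0.05 over the 13329 probe sets in the upper 60% by mean signal. Of the 23 probe sets 21 passed that level filter, and PSEN2 204261_s_at and CLU 222043_at lay below it. The 48 h sarin arrays stood apart before any comparison was made. Their log2 signals correlated with those of the other 15 arrays at r of 0.664 to 0.757, against 0.909 to 0.965 among those 15. The GAPDH 3′/5′ ratio, a measure of RNA integrity, reached 2.15 to 2.3 on them and 0.696 to 1.17 elsewhere, and that of ACTB 3.68 to 4.67 on them and 0.79 to 1.64 elsewhere. Background signal reached 410.7 to 443.2 on them and 97.04 to 182.9 elsewhere. The background is the 90th percentile of 27 bacterial probe sets with no spiked target. The part of array quality in the 48 h results was not tested, and with the 48 h sarin arrays all of this kind, array quality and sarin at 48 h cannot be told apart. In these bulk samples, fewer cells of a type and less RNA per cell cannot be told apart either.

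The labelled cell type was checked on 18 noradrenergic neuroblastoma markers, of which 17 had a probe set and, depending on the group, 15 or 16 were above background on all 3 arrays. TH, which encodes the first enzyme of catecholamine synthesis and is a defining marker, was not above background on any array of any group. Of 9 astrocyte and other glial markers 7 had a probe set. Depending on the group, 2 to 4 of these were above background on all 3 arrays, and S100B was not above background in any group. Summed signals of 13 markers of substrate-adherent neuroblastoma cells, a second cell form that such lines can hold, were 41328.3 to 43396.8 with sarin at 24 h, against 67182.7 to 68794.4 in 24 h controls.

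Across the 9 genes, CLU was higher with sarin at 24 h, most APLP2 probe sets, APLP1, ADAM10, APH1A and CLU were lower with sarin at 48 h, and probe sets of APP, APLP2, ADAM10 and CLU were lower in untreated cells at 24 h than at 3 h. At 3 h of sarin 0 of 21 probe sets were called (0% of all 13329 were). The unadjusted p was under 0.05 for 3 of the 21 and for 1363 of all 13329. At 24 h 2 were called, both higher and both of CLU, where 6.98% of all probe sets were called in either direction and 3.32% were called higher. At 48 h 15 were called, 13 lower and 2 higher, where 68.8% of all were called, 34.5% lower and 34.3% higher. In untreated cells 6 of 21 were called at 24 h against 3 h, all lower, where 5.6% of all were called and 2.08% called lower. At 48 h against 3 h 1 was called, an APP probe set that was lower, where 0.33% of all were called and 0.143% called lower. Untreated cells at 48 h and 24 h differed in 0 of the 21 probe sets, where 0.48% of all were called, with an unadjusted p under 0.05 for 4. The sarin effect at 48 h differed from that at 24 h in 12 of the 21, downward in 10 and upward in 2, where 62.2% of all differed, 30.1% downward and 32.1% upward. Where the 2 directions are counted together, the share of these probe sets called at 24 and 48 h of sarin lay close to that of all probe sets. The median change of the 21 was -0.68 at 48 h of sarin, against 0.03 for all probe sets tested, and -0.28 in untreated cells at 24 h against 3 h, against 0.11 for all.

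**Figure D1:**
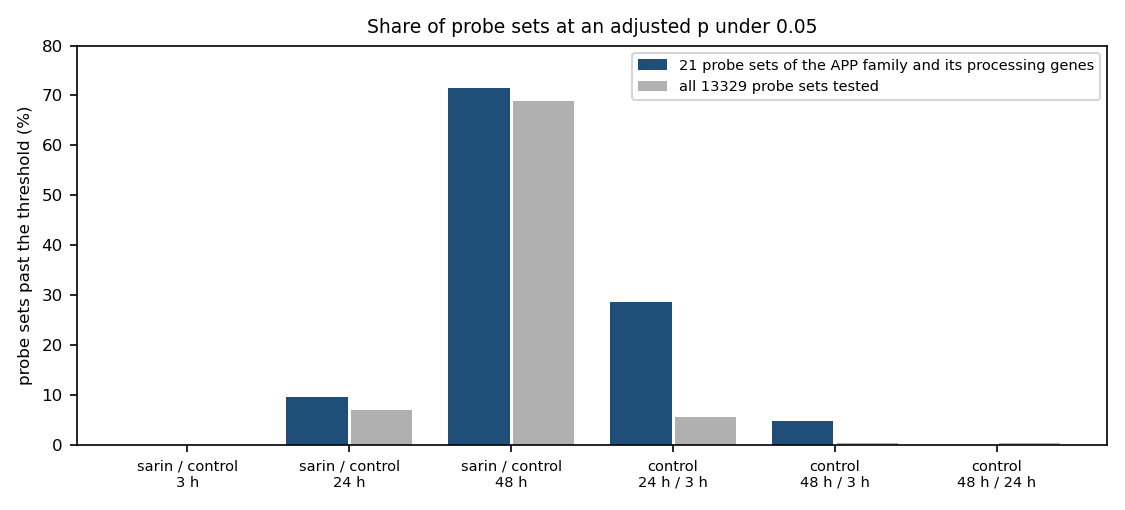
Bars show the percentage of probe sets at an adjusted p under 0.05 in each of 6 comparisons, for the 21 tested probe sets of the 9 genes (dark) and for all 13329 tested (grey). At 48 h of sarin both bars are near 70, and in untreated cells at 24 h against 3 h the dark bar (6 of 21) stands above the grey one (5.6%).

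APP, the best-known substrate, was lower in untreated cells at 24 h in 2 of its 3 probe sets and at 48 h in 1, and it was not called with sarin at 3 or 24 h. Its leading probe set, 214953_s_at, the one with the highest mean signal of the 3, read 3472.6, 4862.5 and 3829.4 in 24 h controls and 2540.2, 3441.3 and 3348.9 in 48 h controls, against 6116.9, 6691 and 9635.9 in 3 h controls. All later control arrays lay below the lowest 3 h control array. Across the 21 tested probe sets, groups without overlap numbered 9 for controls at 24 h against 3 h (25.7% of all), 7 at 48 h against 3 h (17% of all) and 8 at 48 h against 24 h (22.5% of all). The log2 change was -0.87 ± 0.19 (SE) at 24 h (adjusted p = 0.0121) and -1.25 ± 0.19 at 48 h (adjusted p = 0.00581), a signal 2.37-fold lower at 48 h than at 3 h. The 24 h call was lost after quantile normalization (-0.63, adjusted p = 0.0964) and without replicate 1 of the 24 h controls (-0.76, adjusted p = 0.0584), and the 48 h call without replicate 1 of the 48 h controls (-1.11, adjusted p = 0.0532). Both were lost with only the arrays compared, where the 48 h change had an adjusted p of 0.14. The ACTB 3′/5′ ratio was 1.46 to 1.5 in 24 h controls and 1.07 to 1.44 in 48 h controls, against 0.79 to 1.14 in 3 h controls, and its part in the control time course was not tested. The 48 h value was the one control change of these probe sets called at 48 h, and it stayed negative under each scaling tried.

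With sarin, the same APP probe set read 4536.3, 4348.5 and 3741.9 at 3 h, against 6116.9, 6691 and 9635.9 in the 3 h controls. The groups did not overlap, as was true of 3 of the 21 tested probe sets and of 14.1% of all, and the change of -0.80 ± 0.19 had an adjusted p of 0.269. The 3 h sarin arrays thus already lay in the range of the 24 h arrays. At 24 h the values were 4586.5, 4519.8 and 3580.1 with sarin, against 3472.6, 4862.5 and 3829.4 in controls. The difference was 0.07, with a 95% interval of -0.33 to 0.46. At 48 h they were 1924.2, 2693 and 2178 with sarin, against 2540.2, 3441.3 and 3348.9 in controls, a change of -0.46 ± 0.19 (adjusted p = 0.0373). These 48 h groups overlapped, and the call was lost without replicate 2 of the controls (adjusted p = 0.129), without replicate 3 of the controls (0.113), and without replicate 1 (0.142) or replicate 3 (0.0775) of the sarin arrays.

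The other APP probe sets did not follow the leading one. Probe set 200602_at read 804.1, 812.7 and 620.9 at 48 h of sarin, against 854, 1825.1 and 1613.8 in 48 h controls. The groups did not overlap, and the change was -0.86 ± 0.32 (adjusted p = 0.0231), lost without replicate 2 of the controls (-0.66, adjusted p = 0.115), without replicate 3 of the controls (-0.74, adjusted p = 0.0835) and without replicate 3 of the sarin arrays (-0.74, adjusted p = 0.0746). At 24 h it read 1130.6, 1543 and 1269.4 with sarin, against 1728.5, 2061.4 and 1987.8 in controls, without overlap. That change of -0.55 ± 0.32 did not pass the test (adjusted p = 0.305) but was called with only the arrays compared (adjusted p = 0.0269). In untreated cells this probe set did not change detectably between 24 h and 3 h, at 0.42 ± 0.32 (adjusted p = 0.454). Probe set 211277_x_at ran the other way at 48 h, with 1160.4, 1767.3 and 1939.5 with sarin, against 584.2, 441.7 and 441.3 in controls. Every 48 h sarin array lay above every control array, with a change of 1.68 ± 0.24 (adjusted p = 6.46e-06), which was -0.35 with every array scaled to its hybridisation spike-ins. On this array type a name ending in x_at marks a probe set in which some probes also match other transcripts. In untreated cells 211277_x_at was lower at 24 h, with 435.9, 332.9 and 586.2, against 1011.9, 743.6 and 854 at 3 h, a change of -0.95 ± 0.24 (adjusted p = 0.0265). That call was lost without replicate 1 of the 3 h controls (adjusted p = 0.093) and without replicate 1 (0.0743) or replicate 2 (0.124) of the 24 h controls. Over the 15 arrays other than the 48 h sarin arrays, log2 signals of the leading APP probe set correlated with those of 200602_at at r of 0.03 and with those of 211277_x_at at 0.50. The 2 others correlated at -0.33.

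**Figure D2:**
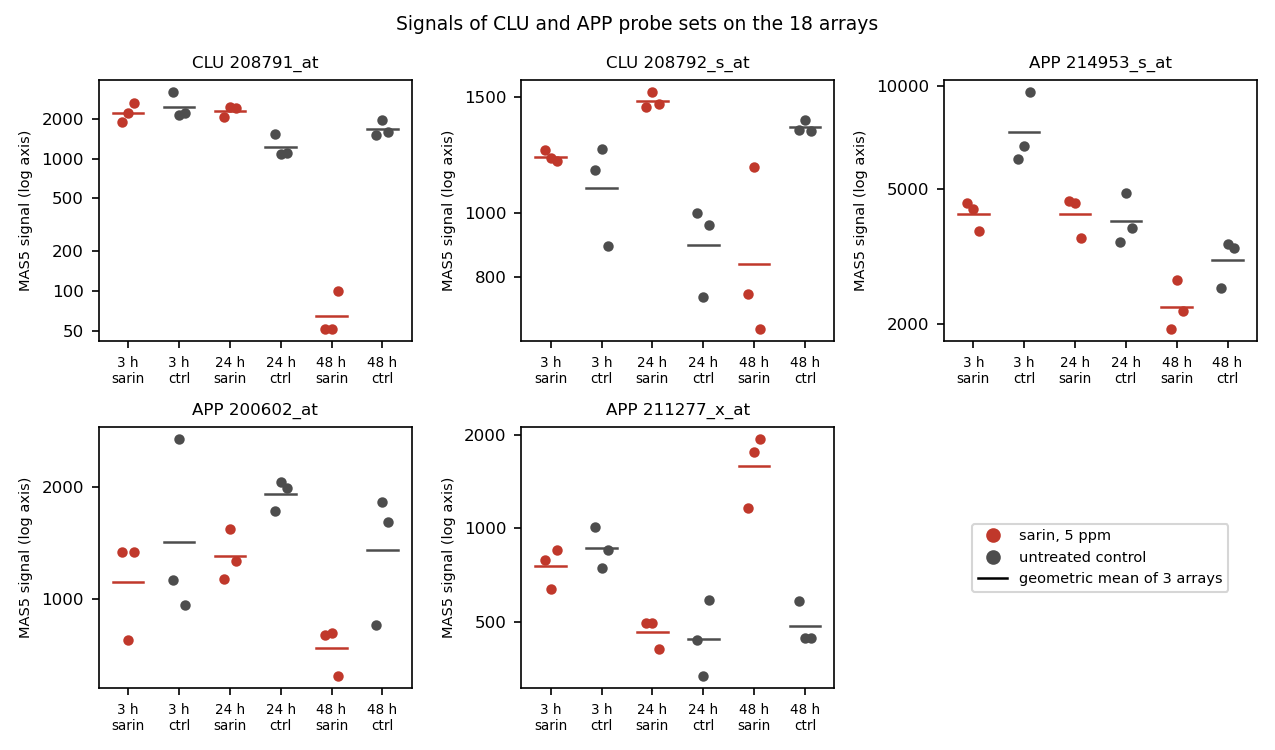
Each point is the MAS5 signal of 1 array (log axis) for 2 CLU and 3 APP probe sets, red for sarin and grey for untreated controls at 3, 24 and 48 h. Lines mark the geometric mean of 3 arrays. CLU 208791_at lies above its controls at 24 h and far below them at 48 h, and APP 214953_s_at is highest in the 3 h controls.

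The genes of APP, APLP2 and ADAM10 are shown here by the 250 bases before each transcription start. Their leading probe sets were all called lower in untreated cells at 24 h than at 3 h. So was that of CLU (-1.01 ± 0.22), whose window is not shown here. Any link of these sequences to the changes was not tested. The sequences are those of RefSeq, build GRCh38.p14, and APP has 2 starts in that table. Capitals mark GGGCGG, the core of the GC box bound by Sp1-type factors, or its reverse complement CCGCCC. Both strands were searched, and adjoining matches can share a run of capitals.

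APP, first start, chr21:26171129-26171378, minus strand: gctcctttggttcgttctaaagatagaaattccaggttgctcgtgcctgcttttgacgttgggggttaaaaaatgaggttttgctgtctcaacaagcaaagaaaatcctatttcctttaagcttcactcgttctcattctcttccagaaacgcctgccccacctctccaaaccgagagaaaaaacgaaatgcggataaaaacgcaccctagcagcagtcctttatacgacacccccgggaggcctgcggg

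APP, other start, chr21:26170771-26171020, minus strand: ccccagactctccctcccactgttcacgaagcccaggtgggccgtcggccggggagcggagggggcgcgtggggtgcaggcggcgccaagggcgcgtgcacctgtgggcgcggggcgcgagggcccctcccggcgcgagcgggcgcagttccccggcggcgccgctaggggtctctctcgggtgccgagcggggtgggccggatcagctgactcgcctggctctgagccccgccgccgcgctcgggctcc

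APLP2, chr11:130070318-130070567, plus strand: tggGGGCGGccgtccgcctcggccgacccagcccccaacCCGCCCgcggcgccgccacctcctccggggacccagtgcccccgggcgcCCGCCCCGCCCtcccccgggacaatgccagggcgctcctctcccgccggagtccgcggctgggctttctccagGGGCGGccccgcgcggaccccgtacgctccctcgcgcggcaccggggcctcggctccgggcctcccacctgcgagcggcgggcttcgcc

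ADAM10, chr15:58749708-58749957, minus strand: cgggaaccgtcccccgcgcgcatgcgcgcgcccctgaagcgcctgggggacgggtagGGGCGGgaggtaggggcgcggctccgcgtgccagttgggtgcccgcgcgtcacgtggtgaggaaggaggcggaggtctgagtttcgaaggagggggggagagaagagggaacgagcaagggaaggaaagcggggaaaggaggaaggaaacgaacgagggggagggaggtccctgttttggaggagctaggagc

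The windows share a high content of G and C, apart from that of the first APP start. It was 78.8% at the other APP start, 82.4% at APLP2 and 68.4% at ADAM10, against 47.6% at the first APP start and a median of 58% over 35116 promoter windows. The motif occurred 5 times in the APLP2 window, 1 time in that of ADAM10 and 0 times in either APP window. It was present in 42.6% of all promoter windows, so its presence is common, and a match is a match of letters.

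APLP2, the most widely expressed relative of APP, was lower with sarin at 48 h in 6 of its 7 probe sets. Its leading probe set, 208704_x_at, read 3699.5, 3283.5 and 3153.6 with sarin at 48 h, against 7358.3, 7741.8 and 6064.2 in 48 h controls. The groups did not overlap, as in 15 of the 21 at 48 h of sarin (69.3% of all), and the change was -1.05 ± 0.14 (adjusted p = 2.53e-06), a 2.08-fold lower signal. Probe set 208248_x_at read 2312.8, 2984.1 and 2677 with sarin, against 6789.6, 7619.4 and 6798 in controls, a change of -1.41 ± 0.13 (adjusted p = 2.97e-08). For 208703_s_at the values were 1034.2, 1643.4 and 1088.5 with sarin, against 4014.5, 4894.6 and 4398.3 in controls, a change of -1.83 ± 0.20 (adjusted p = 2.58e-07). For 208702_x_at they were 1222.2, 931.7 and 1142.9 with sarin, against 4476.2, 3362.5 and 3062.3 in controls, a change of -1.70 ± 0.17 (adjusted p = 5.39e-08). In these 4 probe sets none of the 48 h sarin arrays reached a control array. Those of 208703_s_at were spread more widely than its controls, with an SD on the log2 scale of 0.362 against 0.143. The other 2 of the 6 lower probe sets were less even still with sarin. Probe set 214875_x_at read 186.5, 573.9 and 830.2 at 48 h of sarin, against 2021.9, 2187.7 and 2063.3 in controls, a change of -2.18 ± 0.34 (adjusted p = 1.87e-05). Probe set 211404_s_at read 453.8, 121.6 and 690.6 with sarin, against 2630.6, 1986.8 and 2027.9 in controls, a change of -2.63 ± 0.36 (adjusted p = 4.17e-06), and each of these 2 had 1 sarin array that was not above background.

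The remaining APLP2 probe set, 208701_at, was higher at 48 h of sarin, with 834.9, 953 and 882.7, against 577, 449.7 and 497 in controls. Its change of 0.80 ± 0.25 (adjusted p = 0.00808) stood against the direction of the other 6. It was -1.20 with every array scaled to its hybridisation spike-ins, and it was not called after quantile normalization or median centring. For the 6 lower probe sets the decrease was called in every alternative run, under each scaling and without each array in turn. Its size depended on the run, and for 208704_x_at the change ran from -3.11 to -0.411.

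**Figure D3:**
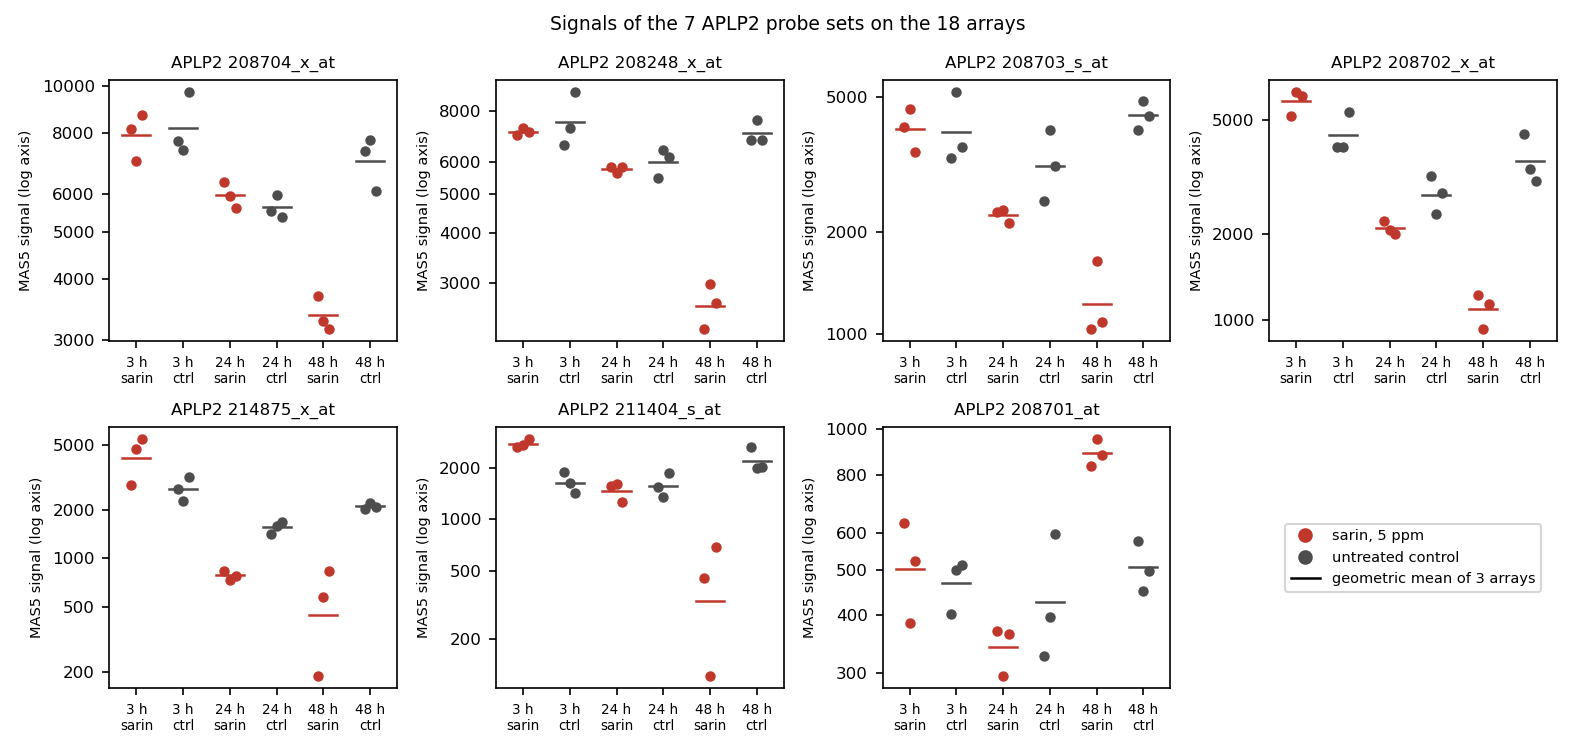
MAS5 signals (log axis) of the 7 APLP2 probe sets on the 18 arrays, red for sarin and grey for untreated controls, with lines at the geometric mean of 3 arrays. In 6 probe sets the 48 h sarin arrays have the lowest mean, and in 208701_at they are the highest (834.9 to 953).

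At 24 h of sarin 0 of the 7 APLP2 probe sets were called, though 3 of them did not overlap with the controls. Across the 21 probe sets 7 did not overlap at 24 h, where 38.9% of all did not. The widest gap was in 214875_x_at, with 840.1, 733.5 and 781.2 with sarin, against 1402.8, 1584.6 and 1676.8 in 24 h controls. Its change was -0.97 ± 0.34 (adjusted p = 0.0913), and it was called at the same size when the 48 h sarin arrays, whose spread enters the common error, were left out of the fit (SE 0.19, adjusted p = 0.00392). At 3 h the same probe set read 2824.7, 4756.8 and 5439.3 with sarin, against 2675.9, 2244.7 and 3183.8 in controls, a difference of 0.64 ± 0.34 (adjusted p = 0.545). Probe set 208703_s_at read 2294.2, 2319.7 and 2131.2 with sarin at 24 h, against 2475.7, 4017.3 and 3129.6 in controls, at -0.48 ± 0.20 (adjusted p = 0.153). Probe set 208702_x_at read 2228.2, 2071.8 and 2001.4 with sarin at 24 h, against 3177.5, 2344 and 2774.5 in controls, at -0.38 ± 0.17 (adjusted p = 0.165). The 2 brightest did not separate at 24 h, with a difference of 0.08 and a 95% interval of -0.21 to 0.38 for 208704_x_at and of -0.06 (-0.33 to 0.22) for 208248_x_at.

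At 3 h one APLP2 probe set separated the groups in the other direction. Probe set 211404_s_at read 2658.5, 2717.2 and 2937 with sarin, against 1882.9, 1636 and 1418.4 in controls. All sarin arrays lay above all controls, and the difference of 0.75 ± 0.36 did not pass the test (adjusted p = 0.494). In untreated cells 2 APLP2 probe sets were lower at 24 h than at 3 h. Probe set 208704_x_at read 5531.6, 5958 and 5380 at 24 h, against 7686.8, 7384.1 and 9717 at 3 h, a change of -0.54 ± 0.14 (adjusted p = 0.0276). Probe set 208702_x_at read 3177.5, 2344 and 2774.5 at 24 h, against 4034.7, 4025.1 and 5348.1 at 3 h, a change of -0.69 ± 0.17 (adjusted p = 0.0217). The first call was lost without replicate 3 of the 3 h controls (adjusted p = 0.0628) or without replicate 1 (0.0797), replicate 2 (0.0615) or replicate 3 (0.0894) of the 24 h controls, and the other without replicate 3 of the 3 h controls (0.0626) or without replicate 2 (0.103) or replicate 3 (0.0585) of the 24 h controls. Both were lost after quantile normalization and with only the arrays compared. At 48 h against 3 h neither was called, with 208704_x_at at -0.22 ± 0.14 (adjusted p = 0.555) and 208702_x_at at -0.30 ± 0.17 (adjusted p = 0.49). Over the 15 arrays other than those of 48 h sarin, the pairwise r of the 7 APLP2 probe sets ran over 0.32 to 0.94, with a median of 0.60.

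APLP1, the family member found mainly in the nervous system, was steady until 48 h. Its probe set, 209462_at, read 121.2, 123.5 and 258.2 with sarin at 48 h, against 549.6, 666.6 and 412.9 in controls. None of the sarin arrays was above background, so the decrease is a bound, with a signal at least 1.25-fold lower (fitted change -1.66 ± 0.28, adjusted p = 4.79e-05). At 3 h it read 524.9, 743.6 and 883.5 with sarin, against 608, 514.5 and 590.9 in controls, and at 24 h 598.3, 646.2 and 515.6 with sarin, against 470.8, 497.9 and 618.6 in controls. Those groups overlapped at both times, with differences of 0.29 ± 0.28 and 0.15 ± 0.28 (adjusted p of 0.768 and 0.791).

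ADAM10, the alpha-secretase, was lower with sarin at 48 h in its leading probe set and was not called at 3 or 24 h. Probe set 202603_at read 866.8, 937 and 1521.9 with sarin at 48 h, against 2102.4, 2112.4 and 2222.7 in controls. The groups did not overlap, and the change was -0.99 ± 0.18 (adjusted p = 7.57e-05). At 24 h it read 1911.4, 1848.2 and 1884.6 with sarin, against 1489.5, 1864.9 and 2021.9 in controls, a difference of 0.08 with a 95% interval of -0.29 to 0.45. At 3 h it read 2570.9, 3119.5 and 3059.7 with sarin, against 2786.9, 2779.4 and 3272.7 in controls, a difference of -0.02 (-0.38 to 0.35). In untreated cells the 24 h arrays lay below every 3 h array, a change of -0.72 ± 0.18 (adjusted p = 0.0234). It was lost without replicate 3 of the 3 h controls (adjusted p = 0.0568) or without replicate 1 (0.1) or replicate 2 (0.0588) of the 24 h controls. It was also lost after quantile normalization and with only the arrays compared. With the deposited scaling the other 2 ADAM10 probe sets were called in 0 comparisons. At 48 h of sarin 202604_x_at was at -0.44 ± 0.29 (adjusted p = 0.18) and 214895_s_at at -0.49 ± 0.30 (adjusted p = 0.146), where no 48 h sarin array of 214895_s_at was above background. Both were called lower at 48 h of sarin after quantile normalization (-1 with adjusted p = 0.00509 and -1.11 with adjusted p = 0.00303), with median centring (-1.01 and -1.06) and with spike-in scaling (-2.38 and -2.34). Without replicate 3 of the sarin arrays 214895_s_at was called too (-0.81, adjusted p = 0.0193). In untreated cells 214895_s_at was called lower at 24 h than at 3 h with median centring (-1.08, adjusted p = 0.0222), spike-in scaling (-1.54) and array weights (-0.89).

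BACE1, the beta-secretase, was not called in any comparison with the deposited scaling. With spike-in scaling it was called lower at 48 h of sarin (-1.55, adjusted p = 0.00329). Its 48 h minus 24 h sarin effect was then called too (-2.21, adjusted p = 0.0038). Its probe set, 217904_s_at, ranged over 435.4 to 669.8 with sarin at 3 h, against 435.2 to 515.9 in controls. At 24 h the range was 491.4 to 741.3 with sarin, against 120.5 to 684 in controls, where 1 control array was far below the other 2. At 48 h it was 579.4 to 635.3 with sarin, against 445 to 467 in controls, without overlap. The 48 h difference of 0.41 ± 0.42 (adjusted p = 0.388) had a 95% interval of -0.46 to 1.29, so a difference of either sign remained within it.

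Among the gamma-secretase subunits, APH1A was lower with sarin at 48 h, and NCSTN was not called in any comparison with the deposited scaling and all 18 arrays weighted alike. APH1A 218389_s_at read 1734.4, 1515.2 and 1254 with sarin at 48 h, against 2326, 2052 and 2638.5 in controls, a change of -0.64 ± 0.19 (adjusted p = 0.00639). At 3 h the arrays had separated the other way, with 3790, 2777.2 and 2969.7 with sarin, against 2271.8, 2566.6 and 1859.3 in controls. That difference of 0.51 ± 0.19 did not pass the test (adjusted p = 0.376). At 24 h APH1A read 2694.9, 2716.3 and 1854.8 with sarin, against 3323.2, 2740.7 and 2246.6 in controls, and the groups overlapped. NCSTN 208759_at ranged over 1061.9 to 1523.6 with sarin at 24 h, against 1718 to 2197.6 in controls, without overlap, at -0.59 ± 0.24 (adjusted p = 0.143). That decrease was called with array weights (-0.64, adjusted p = 0.0125) and with only the arrays compared (adjusted p = 0.0297). At 3 and 48 h its groups overlapped, with differences of -0.06 and -0.37. The 48 h difference was called lower with median centring (-0.94, adjusted p = 0.00237), with spike-in scaling (-2.39) and without replicate 1 of the sarin arrays (-0.63, adjusted p = 0.0271).

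PSEN2, a catalytic presenilin, had 2 tested probe sets that were called in 0 comparisons with the deposited scaling and a dim one that was higher with sarin at 48 h. The dim probe set, 204261_s_at, read 522, 498.8 and 572.6 with sarin at 48 h, against 138, 180.8 and 211.1 in controls. Its change of 1.52 ± 0.33 had an adjusted p of 0.000752 in the fit without the level filter, and it was -0.43 when arrays were scaled to the spike-ins. The background of the 48 h sarin arrays, at 410.7 to 443.2, was higher than these control values. At 3 and 24 h it was near background, with 103.8 to 193.9 and 111.3 to 136.3 with sarin, against 95.2 to 114.7 and 148.6 to 175.3 in controls. The tested probe sets were not called at 48 h, with -0.38 ± 0.48 for 211373_s_at (adjusted p = 0.492) and -0.41 ± 0.27 for 204262_s_at (adjusted p = 0.192). Probe set 211373_s_at read 79.7, 686.7 and 536.7 with sarin, against 410.2, 382.5 and 464.7 in controls. Its sarin replicates 2 and 3 lay above every control array, and replicate 1 was not above background. Probe set 204262_s_at read 340.8, 276.6 and 459.9 with sarin, with 1 array above background, against 373.3, 465.3 and 602.2 in controls. At 48 h 204262_s_at was called lower after quantile normalization (-0.98, adjusted p = 0.00456), with median centring (-0.97, adjusted p = 0.00571) and with spike-in scaling (-2.30), and 211373_s_at with spike-in scaling (-2.20).

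CLU, the clusterin gene, was higher with sarin at 24 h and then far lower at 48 h. Its leading probe set, 208791_at, read 2062.7, 2439.9 and 2413.4 with sarin at 24 h, against 1526.2, 1079.7 and 1098.9 in 24 h controls. The groups did not overlap, and the change was 0.91 ± 0.22 (adjusted p = 0.0204), a 1.87-fold higher signal. Probe set 208792_s_at read 1448.3, 1525 and 1462.2 with sarin at 24 h, against 999.6, 745.1 and 958.6 in controls, again without overlap, a change of 0.72 ± 0.19 (adjusted p = 0.0309). At 3 h neither probe set differed detectably. At that time 208791_at read 1897.9, 2227.1 and 2622.2 with sarin, against 3196, 2149.5 and 2210.4 in controls, a difference of -0.15 ± 0.22 (adjusted p = 0.857), and 208792_s_at read 1243.8, 1209.6 and 1197.4 with sarin, against 1159.9, 1250 and 891.8 in controls, at 0.16 ± 0.19 (adjusted p = 0.825). The 24 h effect minus the 3 h effect was 1.06 ± 0.31 for 208791_at and was not called (adjusted p = 0.143), as was the case for all 21 probe sets, where 0.608% of all were called.

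The 24 h control arrays enter both the 24 h difference in CLU and the control time course. In untreated cells 208791_at was lower at 24 h, with 1526.2, 1079.7 and 1098.9, against 3196, 2149.5 and 2210.4 at 3 h, a change of -1.01 ± 0.22 (adjusted p = 0.0131). It was lost without replicate 1 of the 3 h controls (adjusted p = 0.0637) or without replicate 2 (0.0622) or replicate 3 (0.0541) of the 24 h controls. For 208792_s_at the same control change was -0.28 ± 0.19 (adjusted p = 0.393). The 24 h sarin arrays of 208791_at, at 2062.7 to 2439.9, overlapped the 3 h controls and lay above the 48 h controls of 1516.6 to 1953.4. Those of 208792_s_at, at 1448.3 to 1525, lay above every control array, of which the highest read 1250 at 3 h, 999.6 at 24 h and 1383.5 at 48 h. Set against the mean of the 3 h and 48 h controls in place of the 24 h controls, sarin at 24 h was at 0.17 ± 0.19 for 208791_at (adjusted p = 0.646) and at 0.28 ± 0.17 for 208792_s_at (adjusted p = 0.321). Under scaling to the spike-ins the changes were 0.95 ± 0.31 and 0.76 ± 0.32, and neither was called (adjusted p of 0.196 and 0.398). After quantile normalization 208792_s_at was not called (0.71, adjusted p = 0.0781). Leaving out 1 array ended the call for 208791_at in 4 of 6 cases, those of replicates 2 and 3 of either group, with an adjusted p up to 0.102. For 208792_s_at it ended in 5 of 6 cases, all but replicate 1 of the controls, with an adjusted p up to 0.158. Summed signals of the substrate-adherent markers were lower with sarin at 24 h, as given above. The GAPDH 3′/5′ ratio was 1.05 to 1.17 with sarin at 24 h, against 0.811 to 0.941 in 24 h controls, and that of ACTB was 1.56 to 1.64 with sarin, against 1.46 to 1.5 in controls. The part of these differences in the CLU difference was not tested.

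At 48 h CLU 208791_at read 51.9, 51.4 and 99.2 with sarin, against 1516.6, 1953.4 and 1594.3 in controls. No sarin array was above background, so the signal was at least 3.87-fold lower (fitted change -4.39 ± 0.22, adjusted p = 1.1e-11). Probe set 208792_s_at was also lower, with 752.8, 1173.7 and 666.9 with sarin, against 1333.3, 1383.5 and 1332.7 in controls, a change of -0.68 ± 0.19 (adjusted p = 0.0042). Both decreases were called in every alternative run. The third CLU probe set, 222043_at, was below the level filter and read 62.9 to 274.2 with sarin at 48 h, against 195.9 to 209.4 in controls. With the deposited scaling and all 18 arrays it was called in 0 comparisons. It was called lower at 48 h after quantile normalization (-1.54, adjusted p = 0.0157), with median centring (-1.35, adjusted p = 0.028), with spike-in scaling (-2.36) and without replicate 3 of the sarin arrays (-1.40, adjusted p = 0.0188). However, no 48 h sarin array of 222043_at was above background, and its 48 h controls lay under that background of 410.7 to 443.2. A decrease of this probe set at 48 h was thus not measured. Its 3 h and 24 h ranges of 130.8 to 243.8 and 125.1 to 183.6 with sarin overlapped those of the controls, 84.1 to 296.9 and 87.8 to 188.8.

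**Figure D4:**
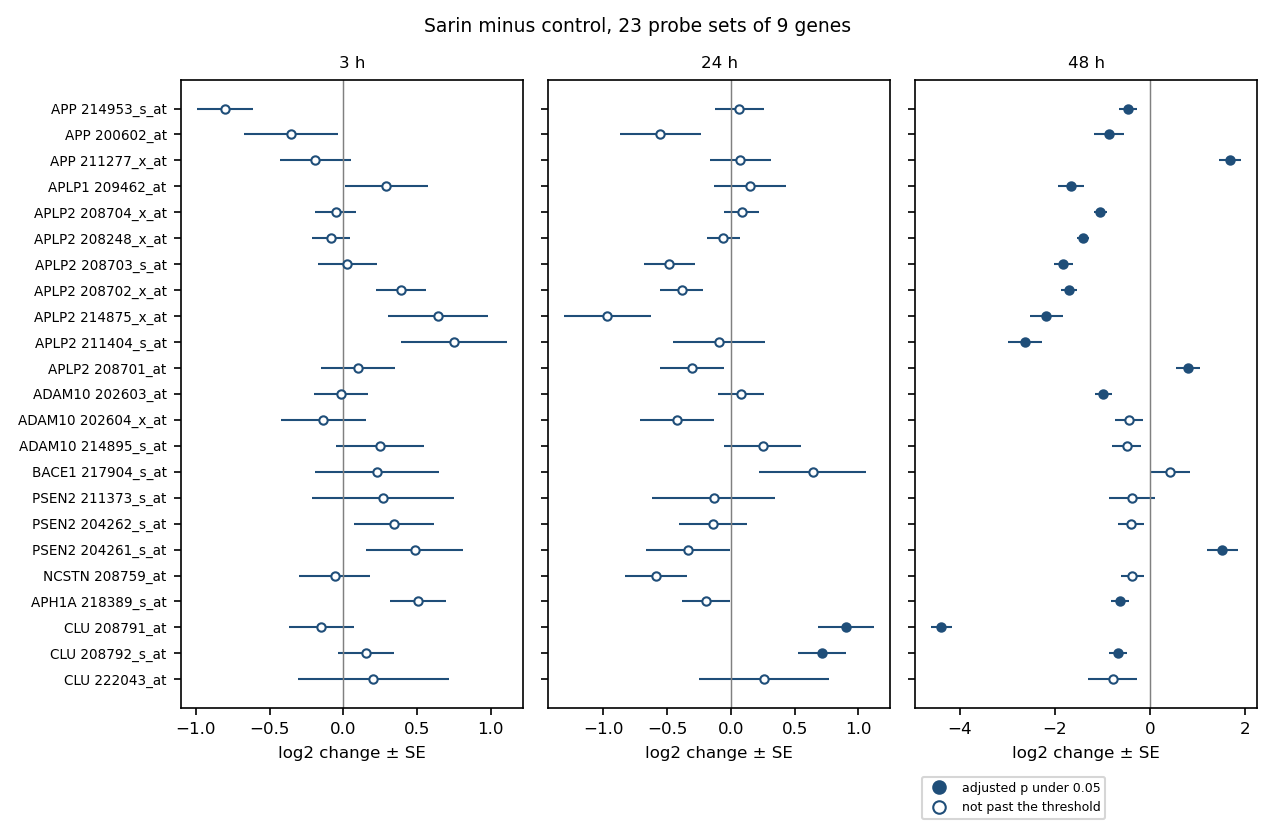
Log2 change of sarin minus untreated control at 3, 24 and 48 h for the 23 probe sets, with bars of 1 SE and filled points at an adjusted p under 0.05. No point is filled at 3 h, the 2 CLU points are filled at 24 h, and at 48 h most points lie left of 0.

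The order of the group means differed between the genes. For APP 214953_s_at the 3 h controls were highest at a mean of 7481 ± 1890 (SD, n = 3), followed by sarin at 24 h (4229 ± 563), sarin at 3 h (4209 ± 415), the 24 h controls (4055 ± 722), the 48 h controls (3110 ± 496) and sarin at 48 h (2265 ± 392). Sarin at 24 h, sarin at 3 h and the 24 h controls overlapped and did not differ beyond their spread. For CLU 208791_at the 3 h controls (2519 ± 587), sarin at 24 h (2305 ± 211) and sarin at 3 h (2249 ± 363) overlapped at the top. The 48 h controls (1688 ± 233) and the 24 h controls (1235 ± 252) followed, overlapping by 1 array, the 48 h controls also overlapped sarin at 3 h, and sarin at 48 h (67.5 ± 27.5) was lowest. For ADAM10 202603_at the 3 h groups led, with 2917 ± 301 for sarin and 2946 ± 283 for controls. The 48 h controls (2146 ± 66.8), sarin at 24 h (1881 ± 31.7), the 24 h controls (1792 ± 274) and sarin at 48 h (1109 ± 360) came after them. The 3 h groups overlapped, and sarin at 24 h lay within the range of its controls.

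**Figure D5:**
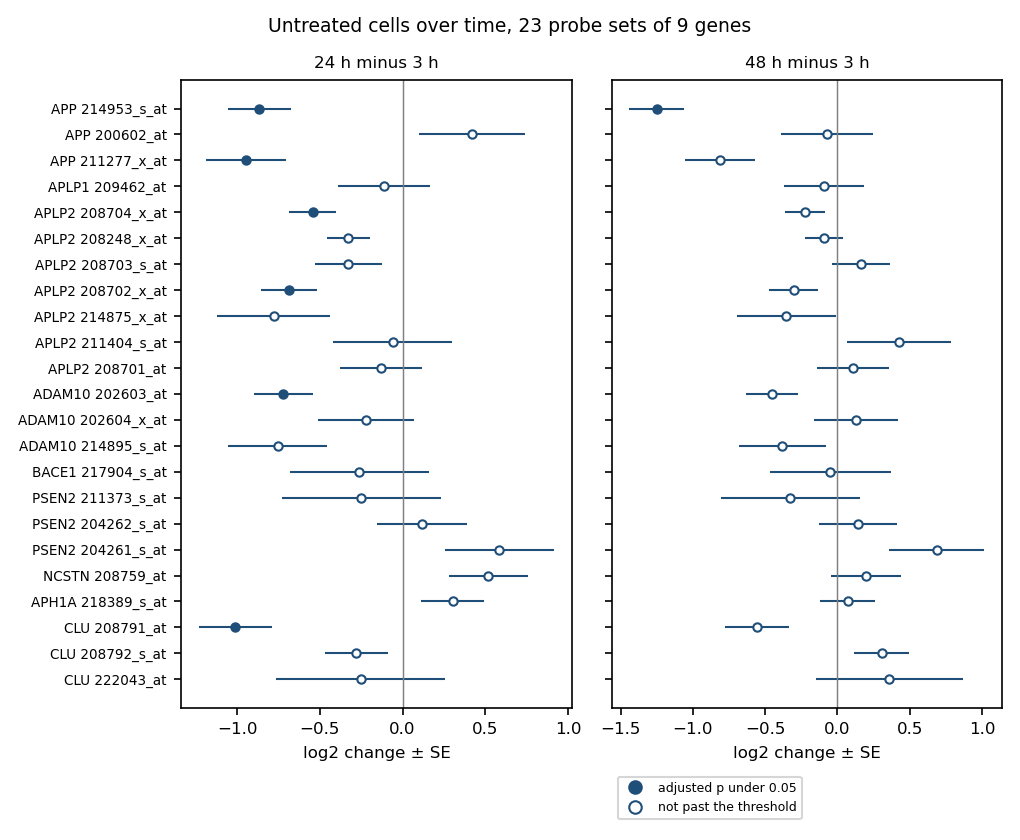
Log2 change in untreated cells at 24 h minus 3 h and at 48 h minus 3 h for the 23 probe sets, with bars of 1 SE and filled points at an adjusted p under 0.05. Filled points at 24 h belong to APP, APLP2, ADAM10 and CLU, all left of 0, and at 48 h to APP 214953_s_at alone.

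Other genes that act on APP, its adaptors, sorting factors, kinases and further proteases, were taken as a list of 55, of which 51 had a probe set and 45 were tested, each by its brightest probe set. With sarin at 3 h 0 of the 45 were called, at a median change of 0.05. At 24 h 2 were called, both lower, where 6.98% of all probe sets were called and 3.66% called lower. CTSB, which encodes the lysosomal protease cathepsin B, had a mean signal of 1896 with sarin, against 3542 in controls (-0.89 ± 0.17, adjusted p = 0.0041). RELN, which encodes the secreted ligand reelin, had 428.7 with sarin, against 803.6 in controls (-0.88 ± 0.25, adjusted p = 0.0387). The CTSB and RELN decreases share their 24 h controls with the CLU increase. In untreated cells at 24 h against 3 h CTSB was lower (-0.76 ± 0.17, adjusted p = 0.0134), and 2 genes were higher, namely KLC1, a kinesin light chain (0.68 ± 0.18, adjusted p = 0.0358), and LRP8, a reelin receptor (0.67 ± 0.19, adjusted p = 0.0462). These are 3 of the 45, where 5.6% of all were called, 3.52% higher and 2.08% lower.

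At 48 h of sarin 17 of the 45 were higher and 17 lower, at a median of 0.26, where 34.3% and 34.5% of all probe sets were called. Of the 6 genes named here, 5 were lower. ITM2C and ITM2B encode membrane proteins that bind APP, CDK5 a kinase of neurons that phosphorylates APP, and SNX17 a sorting factor that binds its cytoplasmic tail. ITM2B had a mean signal of 1613 with sarin, against 7857 in controls (-2.26 ± 0.14, adjusted p = 1.98e-10). CTSB had 873.5 with sarin, against 4494 in controls (-2.35 ± 0.17, adjusted p = 8.39e-10). ITM2C, CDK5 and SNX17 had means of 231.3, 211.9 and 228.4 with sarin, under the 48 h sarin background of 410.7 to 443.2, against 2998, 2312 and 1947 in controls, so that the sizes of these decreases were not measured. FURIN, the protease that activates the ADAM10 and BACE1 precursors, had 1707 with sarin, against 440.3 in controls (1.95 ± 0.27, adjusted p = 3.95e-06). For the genes of this list, in any comparison, the dependence on the scaling or on single arrays was not tested. Of all probe sets called at 48 h of sarin, 49.9% were higher with the deposited scaling and 0.592% with spike-in scaling.

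Over the 15 arrays other than those of 48 h sarin, the genes whose log2 signal followed APP 214953_s_at most closely were ALG8 (r of 0.857), R3HDM2 (0.825), CLTC (0.813), PBX2 (0.807) and OGFOD1 (0.802), of 8230 genes compared. The arrays share their scaling and, within a group, their treatment and time, and genes are not independent. With the 48 h sarin arrays included, r was 0.734 for ALG8, 0.782 for CLTC and 0.623 for OGFOD1, but -0.202 for R3HDM2 and 0.0226 for PBX2. Among the other members, r over the 15 arrays was 0.54 for ADAM10 (rank 237), 0.459 for APLP2 (rank 433), -0.187 for APH1A and -0.282 for NCSTN. Over all 18 arrays it was 0.729 for ADAM10, 0.72 for APLP2, 0.375 for APH1A and -0.0376 for NCSTN.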

How the data were processed

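Expression was measured in 18 samples of SH-SY5Y cells, 1 array each, in 6 groups taken from the labels. The deposited table holds 1 signal intensity per probe set and array, not log-transformed, for which the authors used MAS5, per the submitters' processing notes. The MAS5 version and scaling target were not given in the sources used here. The trimmed mean without the lowest and highest 2% was 800.1 to 800.3 on every array, so the arrays shared a trimmed mean as deposited. Other measures of scale differed. The median signal was 534.5 to 551.6 on the 48 h sarin arrays and 290.2 to 413.9 elsewhere. The mean spike-in signal, relative to that over all 18 arrays, was 3.53 to 4.72 on the 48 h sarin arrays and 0.469 to 1.48 elsewhere. No 2 arrays held identical values.

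Gene names came from the platform annotation, of which 19065 probe sets have 1 symbol, 1043 several and 2107 none, after leaving out 68 controls. Values were taken as log2(signal + 16), a scale that understates changes of dim probe sets. Group means were fitted with limma 3.58.1 in R 4.3.3 (lmFit and trended eBayes, with 12 residual degrees of freedom and 7.134 prior ones). The tests were two-sided, with Benjamini-Hochberg adjustment over the 13329 probe sets with a mean log2 signal of at least 8.021 (a signal of 243.7). For probe sets below that level the adjusted p is that of an unfiltered fit. Values with ± on the log2 scale are standard errors. A probe set at or below the background on all 3 arrays of a group was given a bound there, the other group's mean set against the higher of its own signal and the background. The code was tested on simulated data. The number of arrays limits the precision.

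Every probe set of the members was reported. A probe set called in at least 1 of 8 comparisons has its value on each array of at least 1 comparison that was called. The others have array values, ranges or the fitted changes alone. Of the list of other APP genes, up to 6 called genes were named for each sarin comparison and up to 4 for each control comparison. PSENEN and APH1B, also of that list, were added beside APH1A after their values were seen. The members, the lists and the naming rule were chosen with earlier results of these data known. Same-numbered arrays of different groups correlated in their deviations at -0.167 to 0.255, over 0.1 in 4 of 18 pairs. Those 4 were all pairs of control groups, at 0.178, 0.181 and 0.198 for replicate 1 and 0.255 for replicate 2. The labels do not say whether the numbers pair the samples, and the main fit did not pair them. The fits were repeated with another pseudocount, filter or scaling, 1 probe set per gene, array weights, untrended eBayes, fewer arrays, other 24 h controls and the replicate number as a block, and without each array.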

Additional observations from a re-analysis of the deposited data

Results flagged for a closer look

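The sarin effect at 48 h differed from that at 24 h in 12 of the 21 tested probe sets by the test of the difference itself in the limma fit (62.2% of all probe sets did), and in 1 that lay below the level filter. All of these rest on the 48 h sarin arrays, which stood apart, and the part of array quality in them was not tested. Among the substrates, the difference was -1.81 for APLP1 (adjusted p = 0.000784), 1.6 for APP 211277_x_at and 1.1 for APLP2 208701_at. The other APLP2 probe sets gave -1.35 for 208248_x_at, -1.32 for 208702_x_at, -1.35 for 208703_s_at, -1.14 for 208704_x_at, -2.54 for 211404_s_at and -1.21 for 214875_x_at. Of the secretases, ADAM10 202603_at gave -1.07 and the dim PSEN2 204261_s_at gave 1.86 (adjusted p = 0.00307 without the filter). CLU gave -5.3 for 208791_at (adjusted p = 4.24e-10) and -1.39 for 208792_s_at. No 48 h sarin array was above background for CLU 208791_at or APLP1, so these fitted differences are not measured sizes. Their 48 h signals were at least 3.87-fold and at least 1.25-fold lower with sarin than in controls. The call of APLP2 214875_x_at was lost in 8 of 12 fits without 1 array, with an adjusted p up to 0.0925. That of 208704_x_at was lost after quantile normalization (-0.32, adjusted p = 0.118). The calls of APLP2 208701_at and PSEN2 204261_s_at were lost after quantile normalization and median centring, and that of APP 211277_x_at with median centring.

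In 2 probe sets all sarin arrays lay above all controls at 3 h and below all controls at 48 h, as was true of 3.35% of all probe sets. The change at 48 h minus that at 3 h was -3.38 for APLP2 211404_s_at and -1.15 for APH1A 218389_s_at, and these differences were not tested.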

How the results depend on the processing

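For sarin at 3 h 0 of the 21 probe sets were called in each alternative run. At 48 h, where 15 of 21 were called, the count was 16 after quantile normalization with 13 of the 15 among them, 18 with median centring (14 among them), 20 with spike-in scaling (14 among them) and 13 to 15 without 1 array. For sarin at 24 h (2 called) it was 1 after quantile normalization, 0 with arrays scaled to the spike-ins, 5 with array weights, 5 with only the arrays compared, and 0 to 2 without 1 array. For controls at 24 h against 3 h (6 called, all lower) it was 2 after quantile normalization, 10 with median centring, 11 with spike-in scaling, 0 with only the arrays compared and 1 to 6 without 1 array. For controls at 48 h against 3 h (1 called) it was 11 with spike-in scaling, 3 with array weights, 0 with only the arrays compared and 0 to 1 without 1 array. For controls at 48 h against 24 h (0 called) it was 1 with array weights. The 24 h minus 3 h effect (0 called) gave 3 with array weights, 1 with only the arrays compared and 2 without the 48 h sarin arrays, which were APLP2 214875_x_at (-1.61 ± 0.27, adjusted p = 0.00617) and CLU 208791_at (1.06 ± 0.25, adjusted p = 0.0439). The 48 h minus 24 h effect (12 called) gave 19 with spike-in scaling and 11 to 13 without 1 array. The causes were not tested, apart from fits with fewer arrays, which have fewer samples.

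Directions reversed with spike-in scaling, which moved the median of all probe sets at 48 h of sarin to -2. The reversals named next are those of changes called with the deposited scaling or with spike-in scaling. At 48 h of sarin these were APP 211277_x_at (-0.352), APLP2 208701_at (-1.2), BACE1 (-1.55) and PSEN2 204261_s_at (-0.429). In controls at 48 h against 3 h it was APH1A (-0.759). In the 48 h minus 24 h effect they were APP 211277_x_at (-0.461), APLP2 208701_at (-0.925), PSEN2 204261_s_at (-0.122) and NCSTN (-1.84). Changes called under neither scaling reversed too, such as APLP2 211404_s_at in controls at 48 h against 3 h (0.42, and -0.41 with spike-in scaling). Over all probe sets, 930 were called at 24 h of sarin, with 260 to 626 without 1 array, 60 with spike-in scaling and 3094 with array weights, and the share called higher was 47.5%, against 90.7% with median centring and 61.7% with spike-in scaling. In controls at 24 h against 3 h 746 were called, with 91 to 4474 over the alternatives and 313 to 963 without 1 array, and the share called higher was 62.9%, against 10.1% with median centring and 0.447% with spike-in scaling. At 48 h of sarin 9172 were called, 14041 without the level filter and 6309 with a stricter one, and 49.9% were called higher, against 28.6% with median centring and 0.592% with spike-in scaling. For controls at 48 h against 3 h (44) and against 24 h (64) and for the 24 h minus 3 h effect (81), the counts ran from 3 to 4716, from 4 to 485 and from 1 to 608. The replicate block gave 0, 2 and 15 called for sarin at 3, 24 and 48 h and changed no member count. The decrease of APP 214953_s_at at 48 h of sarin was also lost after quantile normalization, and its adjusted p ran up to 0.497.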

Other observations

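The APLP2 probe sets split at 24 h of sarin once other controls were used, a split chosen after the values were seen. Against the mean of the 3 h and 48 h controls, 208702_x_at was at -0.92 ± 0.14 (adjusted p = 0.000403), 208703_s_at at -0.89 ± 0.18 (adjusted p = 0.00256) and 214875_x_at at -1.57 ± 0.30 (adjusted p = 0.00178) in the limma fit. Such a difference also holds the change of untreated cells with time, so it is not the sarin effect at 24 h alone. Against the 24 h controls the same probe sets were at -0.38, -0.48 and -0.97 in the main fit and were not called. The brighter 208704_x_at and 208248_x_at were at -0.35 ± 0.12 (adjusted p = 0.0711) and -0.34 ± 0.11 (adjusted p = 0.0628), and 211404_s_at and 208701_at were at -0.37 ± 0.31 and -0.49 ± 0.21. The differences between the probe sets were not tested, and the files do not say which APLP2 transcripts each probe set reads.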
